A study of Mus musculus with 20 samples.

Results

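The nuclear genes of respiratory complexes III and IV, cytochrome c and ATP synthase were followed in mouse skeletal muscle. Members were the genes whose only platform symbol begins with Uqcr, with Cox and a digit, or with Atp5, together with Cyc1 and Cycs. The symbols picked 90 probe sets for 49 genes, out of 12393 genes with a symbol of their own on the array. Each gene was read from its probe set with the highest mean over the 20 arrays. Of the 49 genes, 47 were bright enough to test. Cox6b2 and Cox7c, at mean intensities of 47.2 and 87.5, fell below the brightness limit and are given no comparison.

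Skeletal muscle RNA had been hybridised from 20 mice, 5 in each of 4 groups: wild-type not trained (WTUT), wild-type trained (WTT), transgenic not trained (TGUT) and transgenic trained (TGT). The series concerns endurance training in mice that over-express MHC-I. The muscle, the age and sex of the mice, the training schedule, the genetic background, and the transgene's promoter and sequence stand in none of the sources used here. Groups were read from sample titles and source names, because a free-text field calls every sample a trained transgenic one. Separate mouse numbers are taken here as separate animals.

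Complex III passes electrons from ubiquinol to cytochrome c, a small mobile carrier, and complex IV passes them on to oxygen. Both pump protons across the inner mitochondrial membrane, and ATP synthase uses the returning protons to turn a rotor and make ATP. Endurance training is known to raise the mitochondrial content of muscle, and several subunits of complex IV and ATP synthase exist as isoforms, some of them typical of heart and skeletal muscle. The catalytic core of complex IV, cytochrome b of complex III and part of the membrane portion of ATP synthase are encoded in mitochondrial DNA; no gene of that list was among the measured symbols.

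Array medians lay between 156.7 and 174.9 intensity units, and 1745 cells of the table (0.385%) were empty, 822 of them on wtt-137 and 386 on TGT-133. Among the members, Cox19 had the only empty cell, on wtt-137, so its fit rests on 19 arrays. The abbreviation MHC-I is not spelled out in the labels. Myh7, the slow myosin heavy chain, averaged 1254 ± 928 (SD, n = 5) in WTUT, 1259 ± 566 in WTT, 474 ± 202 in TGUT and 395 ± 75.4 in TGT. H2-K1, a class I histocompatibility heavy chain, averaged 1102 ± 307, 1222 ± 345, 1069 ± 201 and 1067 ± 411 in the same order. Neither was higher in the mice labelled transgenic, so the array gives no check of that label. All 14 measured fast-fibre genes were bright enough to test, with sums of 170697 to 186002 over the 20 mice, so the tissue read as skeletal muscle.

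To place the ATP synthase c-ring genes and one complex IV isoform that the results turn on, the 250 bases just before their RefSeq gene starts (GRCm38.p6) are shown 5′ to 3′ on the gene's strand. Atp5g1 lies at chr11:96075632-96075881, Atp5g2 at chr15:102671048-102671297, Atp5g3 at chr2:73911327-73911576 and Cox6a1 at chr5:115348959-115349208, all on the minus strand. Capitals mark every exact match to 5 short motifs searched on both strands.
Atp5g1: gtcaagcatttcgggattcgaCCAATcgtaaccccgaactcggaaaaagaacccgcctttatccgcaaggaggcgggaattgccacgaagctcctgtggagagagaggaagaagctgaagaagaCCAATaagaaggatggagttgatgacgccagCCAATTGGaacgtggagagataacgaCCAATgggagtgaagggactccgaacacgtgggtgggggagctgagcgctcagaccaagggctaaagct
Atp5g2: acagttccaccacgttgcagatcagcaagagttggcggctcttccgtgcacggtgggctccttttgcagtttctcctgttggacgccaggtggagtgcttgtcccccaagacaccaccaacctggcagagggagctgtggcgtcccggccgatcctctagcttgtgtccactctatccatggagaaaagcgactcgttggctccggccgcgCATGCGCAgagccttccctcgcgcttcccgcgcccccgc
Atp5g3: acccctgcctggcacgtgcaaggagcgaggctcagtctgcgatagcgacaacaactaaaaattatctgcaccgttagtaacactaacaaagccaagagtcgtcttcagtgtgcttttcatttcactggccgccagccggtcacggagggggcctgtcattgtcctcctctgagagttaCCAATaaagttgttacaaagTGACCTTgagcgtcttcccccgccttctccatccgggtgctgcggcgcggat
Cox6a1: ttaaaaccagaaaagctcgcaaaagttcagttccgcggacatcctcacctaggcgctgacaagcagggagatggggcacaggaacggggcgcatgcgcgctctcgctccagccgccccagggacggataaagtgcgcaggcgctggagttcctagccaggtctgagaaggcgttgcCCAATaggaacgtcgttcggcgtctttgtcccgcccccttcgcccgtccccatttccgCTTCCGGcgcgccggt
The Atp5g1 window held 5 matches to CCAAT, the NF-Y box, counting both strands and including an overlapping pair in CCAATTGG. That motif was added after the sequences had been read, and 0.84% of 32851 RefSeq promoter windows of this length held 4 or more matches. The Atp5g2 window held none and instead carried TGCGCATG, a nuclear respiratory factor 1 (Nrf1) motif, on the other strand. Atp5g3 carried AAGGTCA, an estrogen-related receptor (Esrra) motif, on the other strand and 1 CCAAT box. In Cox6a1 the capitals are CCGGAAG, the GA-binding protein (Gabpa) motif, on the other strand and 1 CCAAT box.

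RefSeq windows were given for 36 of the 49 genes, 40 windows in all. CCGGAAG was found in 11 of the 40 (27.5%), against 6.91% of all windows. TGCGCATG was found in 3 (7.5% against 1.79%), AAGGTCA in 2 (5% against 4.08%), ATGGCGG, a Yy1 motif, in 1 (2.5% against 2.21%) and CCAAT in 19 (47.5% against 33.8%). Median base composition was 54.8% G and C in the members' windows and 52.4% in all windows. Among genes with a window, CCGGAAG lay in 4 of the 15 that rose with training and in 6 of the 21 others, so its presence did not separate them. A match is a description of the letters and not evidence of binding.

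Training was compared first as the trained minus untrained difference averaged over both genotypes. Of the 47 tested members 19 rose and 0 fell at an adjusted p under 0.05 in limma. Over all 13576 tested probe sets, 2.41% rose and 2.59% fell. The count was 9 with each array centred on its median, 11 without TGT-128 or without TGT-140, and with array weights 30 rose and 1 fell. The shares of 2.41% and 2.59% are those of the fit without these changes. At an unadjusted p under 0.05 the members counted 31 higher and 1 lower, against 9.54% and 11.1% of all tested probe sets. The differences were small: 43 of 47 were above 0, the median was 0.13 on the log2 scale against 0.00 over all tested probe sets, and the 19 that rose ran from 0.10 to 0.36. Differences are given as log2 ± SE, on log2(intensity + 66.7), which understates the change of dim genes. In the 591 tested probe sets brighter than the members' lower quartile, a background chosen after seeing the data, 62 (10.5%) rose and 38 fell. The members above that quartile are among the 591, so this rate is not independent of theirs.

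**Figure D1:**
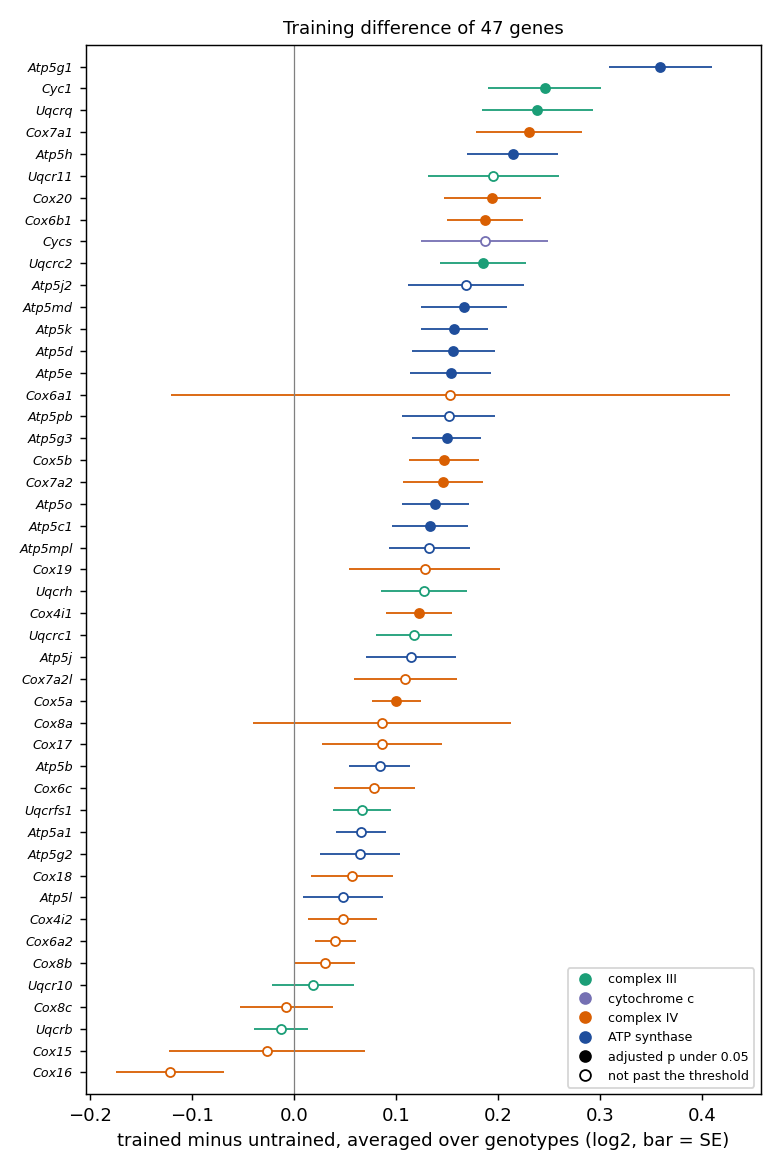
Trained minus untrained difference of the 47 tested genes, averaged over genotypes, on the log2(intensity + 66.7) scale with the SE of the limma fit; colour gives the complex and filled points passed an adjusted p of 0.05. Filled points lie between 0.10 (Cox5a) and 0.36 (Atp5g1), and Cox6a1 and Cox8a have the widest bars.

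By role, 9 of 17 ATP synthase genes, 6 of 13 tested nuclear-encoded complex IV subunits, 3 of 9 complex III genes and 1 of 6 complex IV assembly factors rose. Over all tested probe sets 2.41% rose, and the assembly factor that rose was Cox20 alone. Cycs, the only cytochrome c gene on the list, did not pass, and neither did Cox7a2l, a supercomplex factor related to Cox7a2. Medians of the differences were 0.15 for ATP synthase, 0.13 for complex III, 0.10 for complex IV subunits and 0.07 for the assembly factors.

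The mean deviation of the 47 genes from their own 20-array means gives one summary per mouse. It averaged -0.02 ± 0.06 log2 (SD, n = 5) in untrained wild-type mice and 0.08 ± 0.04 in trained ones. In transgenic mice it averaged -0.10 ± 0.06 untrained and 0.04 ± 0.04 trained. Within each genotype every trained mouse lay above every untrained mouse. The lowest trained wild-type mouse stood at 0.03 and the highest untrained one at 0.02, so that gap was narrow; in transgenic mice the corresponding values were 0.01 and -0.04.

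**Figure D2:**
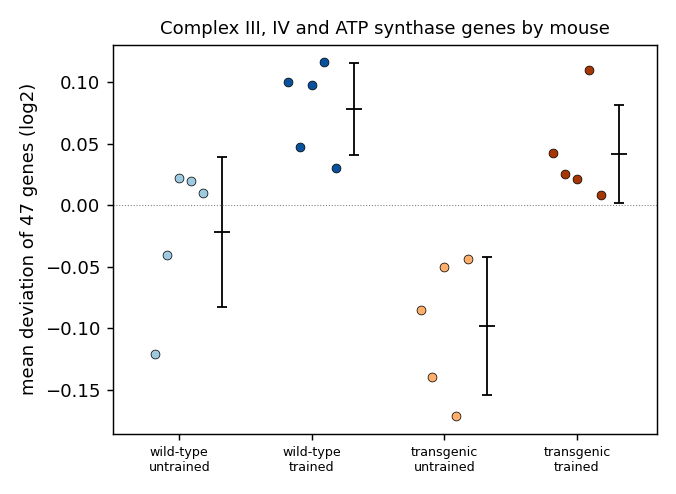
Mean deviation of the 47 tested genes from their 20-array means (log2) in each mouse, by group; the bar beside each group is its mean with SD (n = 5). Trained mice lie above untrained mice of their own genotype, while untrained wild-type and trained transgenic mice overlap.

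Clock and glucocorticoid-responsive genes were scored in the same mice. The clock score (clock activator genes such as Arntl minus clock output genes, mean log2 deviation) averaged 0.45 ± 0.27 in WTUT, -0.04 ± 0.40 in WTT, 0.12 ± 0.30 in TGUT and -0.53 ± 0.28 in TGT (SD, n = 5). The score over 12 glucocorticoid-responsive genes averaged 0.23 ± 0.26, 0.04 ± 0.47, 0.24 ± 0.38 and -0.51 ± 0.17 in the same order. In limma, averaged over genotypes, 1 of 3 tested clock activators and 1 of the 12 fell, and 0 of 7 tested clock outputs were called. Over all tested probe sets 2.41% rose and 2.59% fell. At an unadjusted p under 0.05, 11 of the 12 were lower in transgenic mice, against 10.3% of all tested probe sets. In wild-type mice 0 of the 12 were lower, against 3.13%. Per1 is in both the clock output and the glucocorticoid list. With either score as a covariate, an alternative chosen after seeing the data, 0 of 47 members passed in limma, as did 0 of all tested probe sets; 24 members were still higher at an unadjusted p under 0.05 in each fit. The median member difference was then 0.11 with the clock score and 0.10 with the glucocorticoid score, against 0.13 without, and the median SE was 0.06 and 0.05 against 0.04. Atp5g1, the ATP synthase c-ring gene with the largest difference, stood at 0.35 ± 0.07 and 0.34 ± 0.06 in those fits (adjusted p = 0.51 and 0.14). Adipocyte or slow-fibre scores as covariates, likewise added after seeing the data, left 19 and 18 members called. The part of the clock and glucocorticoid genes in the training difference was not tested.

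Of cell type markers, 1 of 7 tested fibroblast genes rose (Col3a1) and 1 of 8 tested endothelial genes fell (Cldn5), with 0 of 9 adipocyte, 0 of 6 macrophage and 0 of 3 red blood cell genes called in limma. At an unadjusted p under 0.05, 4 of the 7 fibroblast genes were higher and 1 of the 8 endothelial genes was lower. Of the last 3 lists 1 gene, a macrophage gene, was higher. At that threshold 9.54% of all tested probe sets were higher and 11.1% lower, so the endothelial 1 of 8 lies near the background. The fibroblast genes had a median difference of 0.16, with Col3a1 at 1.02. Summed fibroblast intensity ran from 4525 to 7162 in WTUT, 6184 to 8015 in WTT, 6694 to 8333 in TGUT and 6368 to 8903 in TGT. Summed endothelial intensity ran from 2599 to 3370.2, 2836 to 3137, 2605 to 3104 and 2508 to 2790.1 in that order. The ranges of trained and untrained mice overlapped in each genotype for both lists, and the part of these cells in the members' difference was not tested. In whole muscle, fewer cells of a type and less RNA per cell cannot be told apart. Of fibre-type genes, 1 of 11 slow and 1 of 14 fast genes rose with training and 0 fell in limma. Over all tested probe sets 2.41% rose and 2.59% fell. Median differences were 0.0006 for the slow and 0.0004 for the fast genes.

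Atp5g1, which encodes a precursor of the c subunit of the ATP synthase rotor, had the largest difference, as was known from earlier results of these data. Intensities per mouse, here and below in order of mouse number, were 4605, 4542, 4806, 4382 and 4548 in untrained and 5792, 5568, 5478, 6232 and 5661 in trained wild-type mice. In transgenic mice they were 4537, 3785, 4958, 3672 and 4427 untrained and 5863, 5952, 4905, 5902 and 5494 trained. The wild-type groups did not overlap; in transgenic mice 1 untrained mouse, TGUT-145, lay just above the lowest trained mouse, TGT-133. The difference averaged over genotypes was 0.36 ± 0.05, with a 95% interval of 0.25 to 0.47 on the log2 scale, a 1.28-fold rise (limma, adjusted p = 0.003), and it passed in each of the 20 fits that left out 1 array. Its only probe set ends in _a_at, a suffix for probes shared by transcripts of one gene.

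Atp5g2 and Atp5g3 encode precursors with the same mature c subunit and different import sequences. Atp5g3 read 7404, 7622, 7527, 7547 and 7652 in WTUT, 8075, 8496, 8199, 8389.7 and 7963 in WTT, 7499, 6406, 7848, 6355 and 7267 in TGUT and 7993, 8246, 7669.9, 8085 and 7936 in TGT. It rose by 0.15 ± 0.03 (adjusted p = 0.02), without overlap in wild-type mice only. Atp5g2 read 2689, 2994, 2985, 2835 and 2789 in WTUT, 3091, 2972, 3037, 3047 and 3366 in WTT, 2848, 2569, 3017, 2667 and 3056 in TGUT and 2739.7, 2873, 2759, 3019 and 2889.8 in TGT. Its groups overlapped in both genotypes and its difference was 0.07 ± 0.04, with an interval of -0.02 to 0.15 (adjusted p = 0.37).

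The 3 genes were compared within mice as log2 ratios, among 7 isoform pairs tested by an exact two-sided permutation test over 63504 regroupings of trained and untrained mice within genotype. The Atp5g1 to Atp5g3 ratio was 0.21 higher in trained mice on the log2 scale (0.20 in wild-type and 0.22 in transgenic mice). It lay above the untrained mice of their genotype in 10 of 10 trained mice. Its p of 3.1e-05 was the smallest the test can give, and 0.00022 after adjustment over the 7 pairs. The Atp5g1 to Atp5g2 ratio rose by 0.29 (0.21 and 0.38), in 9 of 10 trained mice above their untrained range (exact permutation, adjusted p = 0.00022). The Atp5g3 to Atp5g2 ratio differed by 0.08 and did not pass (exact permutation, p = 0.035, adjusted 0.081). Read from these probe sets, Atp5g1 thus differed more with training than either of its paralogs. Since Atp5g1 was known to lead, these ratios are not independent of that choice. Whether the 3 probe sets respond alike at their different intensities was not tested.

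**Figure D3:**
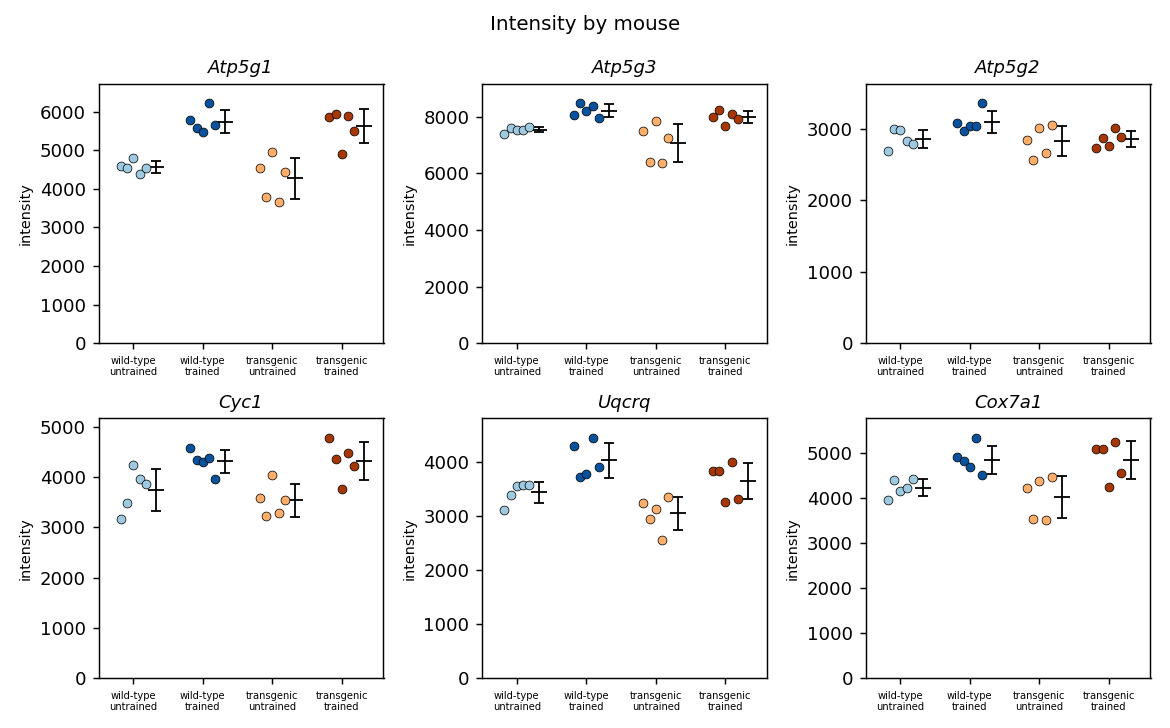
Intensity of 6 member genes in each mouse, by group, from 0; the bar beside each group is its mean with SD (n = 5). Trained and untrained wild-type mice are apart for Atp5g1, Atp5g3, Uqcrq and Cox7a1, and Atp5g2 and Cyc1 overlap between trained and untrained mice in both genotypes.

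Of the 5 genes of the catalytic head and central stalk of ATP synthase, the 3 stalk genes rose. Atp5a1 and Atp5b, the alpha and catalytic beta subunits of the head, did not pass. They stood at 0.07 ± 0.02 and 0.08 ± 0.03, with adjusted p-values of 0.13 and 0.11 in limma. Atp5b read 7511, 7699, 7535, 7955 and 8328 in WTUT, 8418, 7798, 7779, 8671 and 8081 in WTT, 8118, 7359.6, 7483, 7098 and 8014 in TGUT and 8129.8, 8283, 8112, 8381 and 8065 in TGT. Atp5a1 ran from 9038 to 9868 in WTUT, 9577 to 10190.1 in WTT, 9063 to 9911 in TGUT and 9391 to 10277.4 in TGT. Groups overlapped for both genes. Atp5c1, Atp5d and Atp5e, the gamma, delta and epsilon subunits that form the central stalk, rose by 0.13, 0.16 and 0.15; Atp5c1 was closest to the threshold (adjusted p = 0.045) and was called in 4 of 20 fits with 1 array left out, Atp5d in 12 and Atp5e in 9.

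Among the peripheral stalk genes, Atp5h, subunit d, rose by 0.21 ± 0.04 (adjusted p = 0.013). It read 4122, 4144, 4467, 4262 and 4263 in WTUT, 4921, 4859, 5104, 5034 and 4436 in WTT, 3898, 3527, 4501, 3481 and 4142 in TGUT and 4677, 4710.2, 4169.7, 4784 and 4682 in TGT. Most trained mice lay above the untrained mice of their genotype, 8 of 10, with WTT-144 and TGT-133 inside the untrained range. Atp5o, the oligomycin-sensitivity subunit, rose by 0.14 ± 0.03 (adjusted p = 0.023), and its transgenic groups did not overlap. Atp5o read 4341, 4179.8, 4804, 4124 and 4341 in TGUT and 4943, 5022, 4808, 4925 and 5075 in TGT, against 4276, 4586, 4976, 4567 and 4672 in WTUT and 4949, 4799, 5087, 5092 and 4699 in WTT. Atp5pb, subunit b, differed by 0.15 (adjusted p = 0.058) and Atp5j, coupling factor 6, by 0.11 (adjusted p = 0.14).

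The small membrane subunits split. Atp5k, subunit e, rose by 0.16 ± 0.03 (adjusted p = 0.014) and Atp5md, known as DAPIT, by 0.17 ± 0.04 (adjusted p = 0.032). Atp5k read 4209.7, 4342, 4778, 4654 and 4207 in WTUT, 4748, 4895, 5051, 4977 and 4410 in WTT, 4196, 4135, 4300.1, 4069.7 and 4238 in TGUT and 4996, 4879, 4579.7, 4953 and 4673 in TGT, and did not overlap in transgenic mice. Atp5md read 1653, 1759.6, 1923, 1654 and 1772 in WTUT, 1962, 1987, 2013, 1979.8 and 2009 in WTT, 1639, 1498, 1711, 1614 and 1702 in TGUT and 1837, 1861, 1583, 1929 and 1929.8 in TGT. Its wild-type groups were apart, while TGT-133 fell inside the untrained transgenic range. Atp5md was called in 12 of 20 fits with 1 array left out, and Atp5k in each of the 20. Atp5j2 (subunit f, 0.17), Atp5mpl (0.13) and Atp5l (subunit g, 0.05) did not pass, with adjusted p-values of 0.088, 0.059 and 0.54.

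In complex III, Cyc1, the cytochrome c1 that hands electrons to cytochrome c, rose by 0.25 ± 0.06 (adjusted p = 0.019), Uqcrq, a small subunit, by 0.24 ± 0.05 (adjusted p = 0.020) and Uqcrc2, a core protein, by 0.19 ± 0.04 (adjusted p = 0.020). Cyc1 read 3159, 3479, 4240, 3970 and 3861 in WTUT, 4570.1, 4343, 4302, 4383 and 3961 in WTT, 3582, 3233, 4033, 3275 and 3552 in TGUT and 4787, 4353, 3767, 4474 and 4217 in TGT. Its groups overlapped in both genotypes: 8 of 10 trained mice exceeded all untrained mice of their genotype. Uqcrq read 3124, 3399, 3557, 3576 and 3586 in WTUT, 4298, 3731, 3783, 4462 and 3917 in WTT, 3239, 2955, 3142, 2561 and 3365 in TGUT and 3842, 3841, 3262, 4001 and 3316 in TGT, apart in wild-type mice only. Uqcrc2 read 3134, 3343, 3689.9, 3619 and 3609 in WTUT, 3994, 3939, 3708, 4027 and 3652 in WTT, 3461, 3103, 3446, 2834 and 3306 in TGUT and 3946, 3868, 3588, 3837 and 3606 in TGT, apart in transgenic mice only. All 3 were called in each fit with 1 array left out.

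The other complex III genes did not pass. Uqcrc1, the other core protein, differed by 0.12 ± 0.04 (adjusted p = 0.072) and read 4934, 5251, 5492, 5609 and 5862 in WTUT, 6210.3, 5855, 5769, 6145 and 5129 in WTT, 5250.2, 5311, 5476, 4997 and 5395 in TGUT and 6064, 5950.3, 5643, 5749 and 5677 in TGT. Its transgenic groups did not overlap. Uqcrfs1, the Rieske iron-sulfur protein, differed by 0.07 ± 0.03 (adjusted p = 0.18) and read 5325, 5578, 5729, 5628 and 5624 in WTUT, 5991, 6114, 5863, 6064 and 5531 in WTT, 6110.1, 5821, 5461, 5421 and 5881 in TGUT and 5840.1, 5975, 5968, 6103 and 5821 in TGT. Trained and untrained mice overlapped in both genotypes. Among small subunits, Uqcr11 differed by 0.20 and Uqcrh, the hinge protein, by 0.13 (adjusted p = 0.081 and 0.083), whereas Uqcr10 and Uqcrb stood at 0.02 and -0.01 with intervals of -0.07 to 0.10 and -0.07 to 0.04.

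Cycs, the cytochrome c of somatic tissues, read 4713, 5105, 4710.1, 4448 and 5156 in WTUT, 5422, 5264, 4876, 5670.5 and 5506 in WTT, 4623, 3734, 5447, 3884 and 4503 in TGUT and 5329, 5798, 4383, 5542 and 4880.2 in TGT. Groups overlapped in both genotypes and the spread was wide in untrained transgenic mice. The difference was 0.19 ± 0.06 (limma, adjusted p = 0.085). Another Cycs probe set differed by 0.24 and passed (adjusted p = 0.022), and the remaining one differed by 0.17 (adjusted p = 0.12), so the call for Cycs depends on the probe set.

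In complex IV the nuclear subunits that rose were Cox7a1, Cox6b1, Cox5b, Cox7a2, Cox4i1 and Cox5a, which surround the mitochondrially encoded core. With 1 array left out, Cox7a1, Cox6b1 and Cox5b were called in each of 20 fits. Cox5a was called in 16, Cox4i1 in 9 and Cox7a2 in 8. Cox7a1, the heart and muscle isoform of subunit 7A, rose by 0.23 ± 0.05 (adjusted p = 0.020). It read 3957, 4393, 4162, 4228 and 4427 in WTUT, 4914, 4819.6, 4687, 5347 and 4508 in WTT, 4230.3, 3543, 4374, 3523 and 4473 in TGUT and 5086, 5099.6, 4255, 5253 and 4558 in TGT. The wild-type groups were apart, and TGT-133 was the only trained transgenic mouse inside the untrained range. Cox7a2, the isoform of most tissues, rose by 0.15 ± 0.04 (adjusted p = 0.037), reading 4325, 4602, 5219.6, 5104 and 4983 in WTUT, 5366, 5074, 5738, 5473 and 5090 in WTT, 4595, 4596, 5204, 4824 and 4859 in TGUT and 5507, 5019.8, 5156, 5617 and 5457 in TGT. Cox7a2 groups overlapped in both genotypes. The Cox7a1 to Cox7a2 ratio moved by 0.08 on the log2 scale (exact permutation, p = 0.13, adjusted 0.18), so a difference between the isoforms was not shown. Cox7a2l ran from 1601 to 1696 in WTUT, 1528 to 2031 in WTT, 1394 to 1717 in TGUT and 1599 to 1785 in TGT, a difference of 0.11 ± 0.05 (adjusted p = 0.22).

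Cox6b1, which lies on the cytochrome c side of the enzyme, read 6000.1, 6048, 6230.5, 6315 and 5968 in WTUT, 6893, 6475, 6946, 7219.7 and 6027 in WTT, 6143, 5669, 5728, 4976 and 5571 in TGUT and 6387, 6786, 6504, 7038 and 6552 in TGT. All trained transgenic mice exceeded the untrained ones, and in wild-type mice WTT-144 fell inside the untrained range. It rose by 0.19 ± 0.04 (adjusted p = 0.011). The subunits Cox5a and Cox5b rose by 0.10 ± 0.02 and 0.15 ± 0.03 (adjusted p = 0.025 and 0.021). Cox5a read 6899, 7251, 7394, 7502 and 7314 in WTUT, 7469, 7810.4, 7846, 7751 and 7474 in WTT, 7072, 6683, 7281, 6677 and 7161 in TGUT and 7672, 7491, 7414, 7850.5 and 7603 in TGT, apart in transgenic mice. Cox5b read 6444, 6544, 6723, 6591 and 6694 in WTUT, 7239.8, 6961, 6987, 7567 and 6728 in WTT, 6249, 5744, 6501, 5683 and 6708 in TGUT and 7188, 7237, 6656, 7484 and 6706 in TGT, apart in wild-type mice.

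Cox4i1, the common isoform of subunit 4, rose by 0.12 ± 0.03 (adjusted p = 0.035). It read 6338, 7214, 7586, 7471 and 7343 in WTUT, 7870.1, 7670, 7776, 8185 and 7359 in WTT, 6782, 7174, 6387, 6439.9 and 6913 in TGUT and 7433, 7520, 7291, 7301 and 7397 in TGT, apart in transgenic mice. Cox4i2, an isoform known from lung and low oxygen, differed by 0.05 ± 0.03 (adjusted p = 0.47) and ran from 130.6 to 168.6 over all untrained and 145.99 to 168.6 over all trained mice. The Cox4i1 to Cox4i2 ratio moved by 0.07 (exact permutation, p = 0.076, adjusted 0.13). The muscle isoforms Cox6a2 and Cox8b differed by 0.04 ± 0.02 and 0.03 ± 0.03, with 95% intervals of -0.001 to 0.083 and -0.03 to 0.09 (adjusted p = 0.26 and 0.64). Cox6a2 read 9327, 8983, 9141, 9225 and 9271 in WTUT, 9320.3, 8997, 9517, 9298 and 9635 in WTT, 8952, 8784, 9253, 8815 and 9399.9 in TGUT and 9411, 9090.4, 9492, 9618 and 9407 in TGT, and Cox8b ran from 5814 to 6727 over the 20 mice. Trained and untrained mice overlapped for both isoforms. Cox6c differed by 0.08 and the testis isoform Cox8c by -0.01.

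Among the 6 member genes that insert copper or help to assemble complex IV, 1 passed. Cox20, which chaperones a mitochondrially encoded core subunit, rose by 0.19 ± 0.05 (adjusted p = 0.026). It read 634, 662, 683, 679 and 633 in WTUT, 732, 729, 776, 756 and 923 in WTT, 621, 583, 653, 619 and 629 in TGUT and 711, 665, 635, 806 and 709.9 in TGT, apart in wild-type mice. Cox20 was called in 17 of 20 fits with 1 array left out. Cox16, an assembly factor, was the lowest member at -0.12 ± 0.05 (adjusted p = 0.19). It read 791, 847, 823, 680.2 and 879 in WTUT, 764, 728, 779, 705 and 887 in WTT, 867, 915, 849, 845 and 868 in TGUT and 767, 762, 648, 753 and 847 in TGT, with overlap in both genotypes. Cox17, the copper carrier, differed by 0.09, Cox18 by 0.06, Cox19 by 0.13 and Cox15, of heme a synthesis, by -0.03.

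Several genes have further probe sets. For Uqcrq, a dim probe set (mean intensity 226) gave -0.01 and another (mean 189) gave 0.13, neither called, where the bright one (mean 3548) gave 0.24. For Cox5b, the 4 bright probe sets gave 0.10 to 0.17 and a dim one (mean 134.9) gave -0.03. A second Cox15 probe set differed by 0.17 and passed (adjusted p = 0.045), against -0.03 for the brighter one. The second probe sets of Atp5d and Cox7a2 gave 0.22 and 0.21, both called. With the dimmest tested probe set of each gene in place of the brightest, 12 of 47 genes rose.

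Taken by genotype, training gave no called member in wild-type mice and 1 in transgenic mice. In wild-type mice 0 of 47 members passed in limma, against 0% of all tested probe sets, with a median difference of 0.10. At an unadjusted p under 0.05, 19 members were higher and 0 lower there, against 4.74% and 3.13% of all probe sets. In transgenic mice Atp5g1 passed, at 0.40 ± 0.07 (SE, adjusted p = 0.036), against 0.133% of all probe sets higher, and the median was 0.15. At an unadjusted p under 0.05, 29 members were higher and 1 lower, against 7.12% and 10.3% of all probe sets. Of the 591 bright probe sets, with the bright members among them, 125 were higher. Of the 47 members 42 were above 0 in wild-type and 45 in transgenic mice, against 49.9% and 51.7% of all tested probe sets. In both genotypes 41 members were above 0, a count not made over all probe sets. The genotypes share no array, but members on the same arrays are not independent. Trained mice lay wholly above untrained ones for 8 members in wild-type and 9 in transgenic mice, against 1.83% and 1.19% of all tested probe sets. For 0 members were they apart in both genotypes, against 0.14% of all probe sets. The transgenic count moved with single arrays: without TGUT-145 the count was 14, without wtt-137 or WTT-144 it was 3, and without TGUT-146 it was 2. It was 0 without any 1 of WTT-129, wtt-134, TGUT-131, TGUT-139, TGUT-147, TGT-128, TGT-132, TGT-140 or TGT-143.

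The test of the difference between genotypes, the interaction, called 0 of 47 members in limma and 0% of all probe sets, with 1 member at an unadjusted p under 0.05 against 2.91% of all probe sets. That member was Cox19, an assembly factor, at 0.33 ± 0.15 (SE, adjusted p = 1.0). It read 357, 432, 472, 461 and 484 in WTUT, 388, 452, 414 and 451 in the 4 trained wild-type mice measured, 308, 359, 377, 359 and 372 in TGUT and 449.6, 340.4, 604, 446 and 443 in TGT. The difference was larger in transgenic mice for 38 of 47 members, with a median interaction of 0.05, against 49.1% of all probe sets above 0 and a median of -0.002. Across the 47 genes the training differences of the genotypes had a Pearson correlation of 0.73 and a Spearman correlation of 0.73, a description across genes, which share arrays and are not independent.

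**Figure D4:**
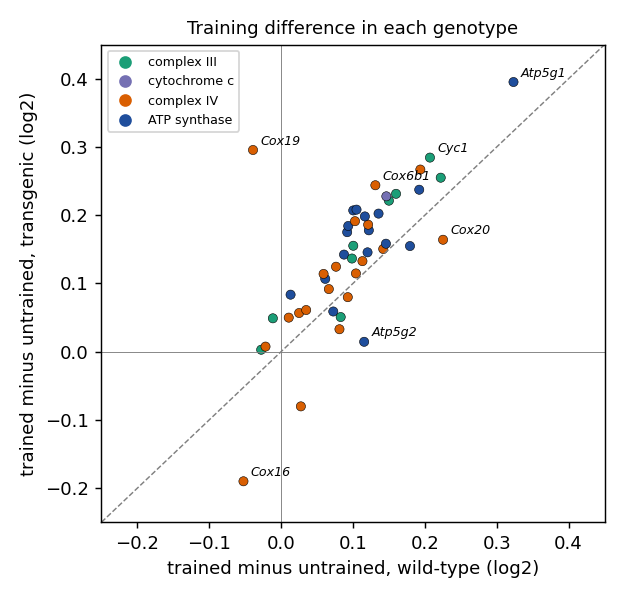
Trained minus untrained difference (log2) of each tested gene in wild-type mice (x axis) and transgenic mice (y axis), coloured by complex; the dashed line marks equal differences. Atp5g1 lies farthest out at 0.32 and 0.40, Cox19 lies off the line at -0.04 and 0.30, and 38 of 47 genes lie above the line.

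The transgene comparison gave 0 called members. Averaged over training, 0 of 47 passed in limma against 1.23% of all probe sets in either direction, with 0 higher and 6 lower at an unadjusted p under 0.05. At that threshold 6.78% of all probe sets were higher and 10.6% lower. Of the 591 bright ones, with the bright members among them, 118 were lower, so the members' 6 lie near the background. In untrained mice 0 passed against 0.11% of all probe sets (5 lower at an unadjusted p under 0.05, against 4.76%), and in trained mice 0 against 0.0516% (1 lower, against 8.32%). The median difference was -0.04 averaged, -0.08 in untrained and -0.01 in trained mice, but under quantile normalization these medians were 0.01, -0.02 and 0.06, so the direction is not settled by these data. Atp5l, ATP synthase subunit g, had the smallest unadjusted p among members, at -0.12 ± 0.04 (SE, adjusted p = 0.12), followed by Uqcrq at -0.16 ± 0.05 (adjusted p = 0.14). Cox6a1 had the lowest, -0.50 ± 0.27, with a 95% interval of -1.07 to 0.07. In the same comparison 9 of 11 slow-fibre genes fell, with Myl2 at -2.38 and Atp2a2 at -1.67, and summed intensities were 9172 to 26439.5 in WTUT, 13416.6 to 25168 in WTT, 7385 to 12299 in TGUT and 7892 to 10527.9 in TGT.

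Cox6a1 and Cox8a, the isoforms of subunits 6A and 8 found outside muscle as well, stood apart from the other members by their spread within groups. Cox6a1 read 542, 807, 1176, 2236 and 1879 in WTUT, 1811, 788, 1759, 1416 and 971 in WTT, 654, 1020.5, 700.5, 814 and 823 in TGUT and 513, 526, 2313, 1520.1 and 626 in TGT. Cox8a read 1063, 1285, 1413, 2092 and 1705 in WTUT, 1709.5, 1244, 1752, 1653 and 1389 in WTT, 1177, 1421, 1143, 1253 and 1333 in TGUT and 1077, 1066, 2215, 1549.7 and 1218 in TGT. The SD within groups was 0.67 log2 for Cox6a1 and 0.30 for Cox8a, against a median of 0.09 over the 47 members. Cox6a1 thus varied 4.51-fold between mice while its training difference was 0.15 ± 0.27 (adjusted p = 0.82). The ratios of Cox6a2 to Cox6a1 and of Cox8b to Cox8a moved by -0.11 and -0.06 with training on the log2 scale (exact permutation, adjusted p = 0.70 for each).

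The same mice were high in adipocyte genes. Cidea, a lipid-droplet gene of adipocytes, read 98.2, 227, 401, 1258 and 1269 in WTUT, 1148, 213, 630.2, 577 and 304 in WTT, 130.4, 368, 183, 311 and 247 in TGUT and 119.7, 122, 1568, 892 and 179 in TGT. Adipoq, the adipocyte hormone adiponectin, read 96.8, 263, 497, 1635 and 1277 in WTUT, 1610.3, 426, 2116, 753 and 452 in WTT, 487, 870.4, 990.4, 496 and 808 in TGUT and 160.4, 62.5, 2728, 1387 and 162 in TGT. Mice TGT-133, WTUT-138 and WTUT-142 were the highest in Cidea and also the highest 3 in Cox6a1. Summed over 10 adipocyte genes, intensity ran from 8981 to 24534 in WTUT, 11815 to 24969 in WTT, 10885 to 13578 in TGUT and 7365 to 23258 in TGT.

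Deviations from group means were correlated with the adipocyte score for the 46 members without an empty cell (permutation within groups, 100000 resamples, 20 mice). Cox6a1 had Pearson r 0.97 and Spearman rho 0.95, each with a permutation p of 1e-05, the smallest the resampling can give, and 0.00023 adjusted over 46 members. Without the most extreme mice on the score, wtt-137 and TGT-133, r was 0.98. Cox8a had r 0.94 and rho 0.95 (same permutation p and adjusted p), with r 0.93 without those mice. Cox8b had r 0.67 (permutation, adjusted p = 0.036), but its rho of 0.63 did not pass (adjusted 0.078) and r fell to 0.53 without them. Cox6a2 had r 0.29 (permutation, adjusted p = 0.49). Against the slow-fibre score 0 of 46 members passed (permutation). Whether fat tissue in the samples or expression within muscle fibres carries these values was not tested.

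**Figure D5:**
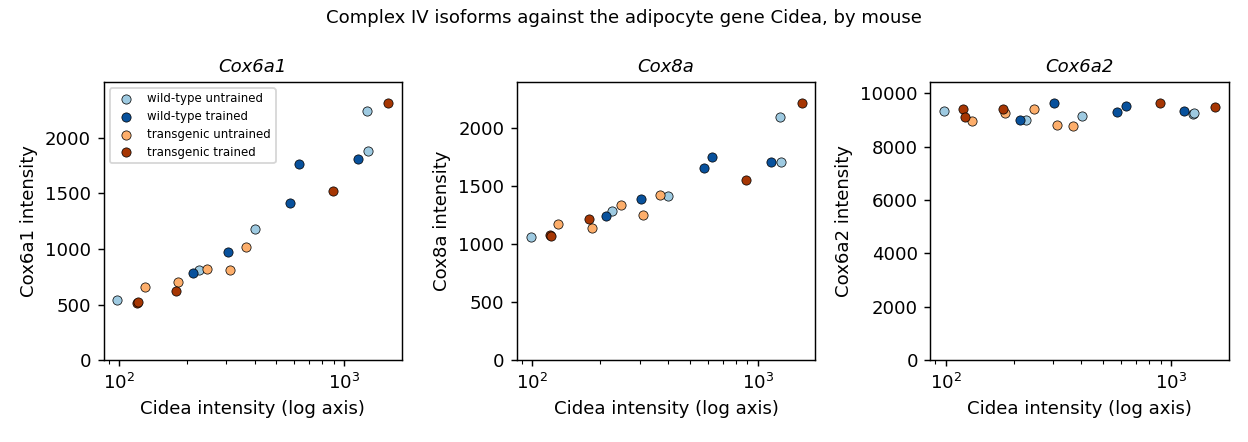
Intensity of Cox6a1, Cox8a and Cox6a2 against that of the adipocyte gene Cidea (log axis) in each of the 20 mice, coloured by group. Cox6a1 is higher in mice with more Cidea in all 4 groups, running from 513 to 2313 in trained transgenic and from 654 to 1020.5 in untrained transgenic mice, Cox8a climbs less steeply along the same axis, and Cox6a2 stays between 8784 and 9635.

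Many members, but not all, also varied together between mice of a group. Over 1081 pairs of members, deviations from group means had a median correlation of 0.31, and 73.3% of pairs were above 0. The highest pair was Cox6a1 with Cox8a at 0.98, and the lowest Cox15 with Atp5j2 at -0.84. By gene, the median correlation with the other members ran from -0.43 for Cox8c to 0.59 for Cox5b. Genes on the same arrays share array-wide effects, and pairs of other probe sets were not examined, so these values are a description.

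Neighbouring gene lists, taken from textbook membership, moved with training in the same comparison. For complex I, the entry point for NADH electrons, 15 of 34 genes rose and 0 fell, led by Ndufb10 at 0.38 ± 0.06 (SE) and Ndufa8 at 0.32 ± 0.06, with a median of 0.15. In complex II 2 of 4 rose, Sdhd by 0.33 ± 0.06 and Sdhb by 0.16 ± 0.04. Of 21 further assembly factors of complexes III, IV and ATP synthase 2 rose, Cmc2 by 0.40 ± 0.06 and Coa6 by 0.29 ± 0.07. In the tricarboxylic acid cycle, whose list includes the complex II genes, 4 of 17 rose. Among them were Sdhd and Sdhb again, Dlst by 0.28 ± 0.06 and citrate synthase, Cs, by 0.14 ± 0.04. No gene of these lists fell, and over all tested probe sets 2.41% rose and 2.59% fell.

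Among regulators of mitochondrial genes 1 of 17 rose and 2 fell, against 2.41% and 2.59% of all tested probe sets. Esrra, a nuclear receptor of oxidative genes, rose by 0.24 ± 0.05 (SE, adjusted p = 0.017). Pprc1, a coactivator related to PGC-1alpha, stood at -0.44 ± 0.09 (adjusted p = 0.010) and Gabpa, a subunit of the GA-binding protein, at -0.28 ± 0.07 (adjusted p = 0.035). Ppargc1a, which encodes PGC-1alpha, differed by 0.17 ± 0.26, Tfam by 0.18 ± 0.08 and Nrf1 by 0.01 ± 0.04, none of them called. Levels of mRNA only were measured.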

How the data were processed

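The 20 samples are total RNA labelled with biotin, per the labels, 1 array per mouse. The deposited values are linear intensities, 1 per probe set, already on a common scale; how they were summarised and scaled, and why some cells are empty, is stated in none of the sources used here. The members and gene lists were chosen with earlier results of these data known. With 66.7 added (the table's 20th percentile), log2 values of 13576 probe sets above the 40th percentile of mean level (7.59) were fitted with limma 3.58.1 in R 4.3.3: 4 group means, empirical Bayes with a variance trend, and two-sided tests with Benjamini-Hochberg adjustment over all tested probe sets within each of 7 contrasts. Gene symbols come from the platform annotation; 20380 of 22626 non-control probe sets had exactly 1. Every member could be named; mouse-by-mouse values went to the 10 largest training changes among genes that passed, the 2 largest of each other contrast, isoform sets and catalytic or core subunits, some of these as ranges, and 2 genes per list and direction. Isoform ratios were tested by exact permutation and within-group correlations by 100000 resamples. Intensities of different probe sets were not compared as amounts. The isoform ratios compare only how they differed between trained and untrained mice. With 5 mice a group, small differences have limited precision. The fit was tested on simulated data.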

Additional observations from a re-analysis of the deposited data

Results flagged for a closer look

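In the 195 sets of 5 mice (a member in a group), 5 held a mouse whose gap to its nearest neighbour exceeded Dixon's critical value of 0.71 as a share of the set's range; chance gives about 1 in 20. Among trained transgenic mice, TGT-133 was low for Atp5h at 4169.7 (next mouse 4677) and for Atp5md at 1583 (next 1837). TGUT-131 was low for Cox19 at 308 (next 359). WTT-144 was high for Cox20 at 923 (next 776), and wtt-134 was high for Uqcrb at 9181 (next 8713). TGT-133 also holds 386 of the 1745 empty cells and was the highest mouse in Cox6a1 and Cidea.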

How the results depend on the processing

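The count of members that rose with training averaged over genotypes (19) was 9 with arrays centred on their medians, 31 with array weights (30 up and 1 down), 9 of 35 without probe sets ending in _x_at, _s_at or _a_at, 12 with the dimmest tested probe set of each gene, and 0 with the clock or the glucocorticoid score as a covariate. Leaving out 1 array gave 11 to 26, the lowest without TGT-128 or TGT-140; the other alternatives gave 13 to 24. Cox5b read -0.033 both without the shared probe sets and with the dimmest, and Uqcrq -0.012 without them. Training in transgenic mice (1) gave 7 with quantile normalization, 27 with array weights, 11 with the Gapdh ratio as a covariate, 3 with a filter at the 60th percentile or without wtt-137 and TGT-133 together, and 2 with an added constant of 1, robust variance, or an adipocyte or slow-fibre covariate. It gave 0 with centred arrays, no filter, the compared groups alone, without the shared probe sets, or with the clock or glucocorticoid covariate, and 0 to 14 with 1 array left out. Array weights gave 2 in wild-type training and 1 in the averaged transgene comparison. The cause of these shifts was not tested, and the shares of all probe sets called in these runs are not given here. Interaction and the other transgene counts stayed at 0 in every alternative run. No paired analysis was possible because mouse numbers differ between groups.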
